A study of Sus scrofa with 6 samples.

Results

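The miR-99/100 family (ssc-miR-99a, ssc-miR-99b and ssc-miR-100) and the miR-125 family (ssc-miR-125a and ssc-miR-125b) were measured in the liver of newborn male piglets of 2 breeds. The members were the 5 rows of the miRNA array table that carry exactly these names, out of 336 rows, of which 236 bear the name of a pig miRNA (prefix ssc-, left out below). The table holds no other row of these families, so both strands of a precursor could not be compared. The comparison was between Erhualian (EHL), an indigenous Chinese breed known for high adiposity, and Large White (LW), a Western commercial breed, which served as the control. There were 3 single-colour arrays for each breed, and each array received RNA pooled from 2 littermates, so that 3 litters and 6 piglets stood behind each breed. The piglets were newborn and untreated, were born to purebred sows and came from neighbouring farms. Which farm supplied which breed is not given in the sources used here, so breed and farm cannot be told apart. No genome build is named for the table, and no position is given for the members.

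Both families belong to the most conserved animal miRNAs. Their genes lie in paralogous clusters in which a miR-99/100 gene, a let-7 gene and a miR-125 gene follow each other and can be transcribed as a single precursor, and miR-125 is the vertebrate relative of lin-4, the founding miRNA. Members of the miR-99/100 family are known to act on mTOR and the IGF1 receptor, and miR-125 on regulators of proliferation and on LIN28. The LIN28 protein blocks the maturation of let-7 but not that of the partners in the same precursor. In the Sscrofa11.1 gene table of RefSeq, MIR125A, MIRLET7E and MIR99B were direct neighbours among the miRNA genes, as were MIR125B-1, MIRLET7A-1 and MIR100, and MIR99A stood next to MIRLET7C. The mature miR-125b can come from MIR125B-1 and from MIR125B-2, the gene that accompanies miR-99a and let-7c in other mammals, and the array has a single row for both.

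The families are defined by their seed, bases 2 to 8 of the mature miRNA, which in DNA letters reads ACCCGTA in the miR-99/100 family and CCCTGAG in the miR-125 family. Of the 5 members, 1 has a sequence among the study's primers, the miRNA-specific RT-qPCR primer listed under the name miR-100. It is shown because it bears on which strand that name stands for, with its bases 2 to 8 in capitals.
miR-100 primer: cAAGCTTGtgtctataggtat
This 21-base primer holds neither of the 2 seeds on either strand, and 0 of the 18 listed miRNA primers hold the letters ACCCGTA. Which strand the array probe named miR-100 detects is not given in the sources used here, so its values are reported under the row's name without assigning them to an arm. The study names miR-100 as a miRNA detected despite a mismatch to its probe. It reports a far weaker array signal for it than for matching miRNAs of like abundance. By sequencing of RNA pooled within each breed, the study listed miR-100 among the miRNAs higher in EHL. Its array did not call miR-100, and the RT-qPCR difference was not significant.

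All 5 members had a signal on all 6 arrays, between 81 and 1813, where a signal is the fluorescence intensity after background subtraction and LOWESS normalization. The labelled tissue was checked against its defining marker. The hepatocyte miRNA miR-122 had the highest signal of the named rows on every array, never below 18287, although the row of miR-194, another hepatocyte miRNA, was blank on every array. Rows of muscle and pancreas markers were blank or, for miR-133a-3p, listed at no more than 17. A blank row does not show that a miRNA is absent, since the study found miR-133a and miR-216 in these livers by sequencing. It also found miR-375, a pancreas marker without a row. Each member is compared only with itself, because the brightness of different probes does not rank their miRNAs by abundance.

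None of the 5 members differed between EHL and LW beyond the spread between arrays. By limma, 0 of 5 passed the FDR of 15%, and 0 of 5 had an unadjusted p under 0.05, beside 1 of 109 miRNAs called (0.917%) and 11.9% with an unadjusted p under 0.05. SAM, the method of the study, was recomputed and also called 0 of 5, beside 7.34% of all miRNAs tested. The recomputed calls were not those of the study, which at this FDR had miR-15b, miR-221 and miR-27a lower in EHL. The recomputed SAM in turn called miR-151-5p higher in EHL, which the study did not list. The values of the breeds overlapped for all 5 members, whereas they did not overlap for 18 of the 96 miRNAs listed on all arrays (18.8%, with 11.5% higher and 7.29% lower in EHL). On the log2 scale the EHL minus LW difference was above 0 for 3 members and below 0 for 2, beside 51.4% of all miRNAs above 0, with a median of 0.025. The median over all 109 miRNAs tested was 0.025 as well, since miR-125a was the middle value of both.

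The signal of miR-99b was 276, 142 and 137 on LW arrays 1, 2 and 3, and 142, 319 and 440 on EHL arrays 1, 2 and 3. EHL arrays 2 and 3 stood above every LW array, while EHL array 1 was as low as LW arrays 2 and 3. Mean and SD of the 3 arrays were 185 ± 78.8 for LW against 300 ± 150 for EHL. On the log2 scale miR-99b differed by 0.63 (standard error 0.45), a 1.55-fold higher signal in EHL with a 95% interval from 0.766-fold to 3.13-fold (limma, adjusted p = 0.604). It had the largest difference of the 5 members, 24th in size among the 109 miRNAs, and the largest spread, with an SD within breeds of 0.72 on the log2 scale that was 10th highest among the 96 miRNAs listed on all arrays. How large the difference was rested on single arrays. It fell to 0.28 without EHL array 3 and rose to 0.96 without LW array 1, and neither passed the FDR of 15%. Without EHL array 1 the difference was 1.10 (standard error 0.36), or 2.14-fold, and passed the FDR of 15% (limma, adjusted p = 0.0579), but 24 of the 97 miRNAs then tested passed it too (24.7%, with 15.5% higher and 9.28% lower in EHL). EHL array 1 also had the highest summed signal of the erythroid markers miR-451 and miR-486, at 410. The sum was 78 and 85 on the other EHL arrays and 124 to 249 on the LW arrays. The same array was highest for the endothelial miR-126 (4524) and the hepatocyte miRNAs miR-192 (5592) and miR-148a (2256), but not for miR-122. Its summed signal of stellate cell and smooth muscle markers was the lowest, at 3101. The part of these differences in the result was not tested.

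The signal of miR-99a was 212, 160 and 230 on the LW arrays and 150, 147 and 224 on the EHL arrays. EHL arrays 1 and 2 were below every LW array, and EHL array 3 lay between the LW values, so the breeds overlapped. In log2 units LW had 7.63 ± 0.27 and EHL 7.41 ± 0.34 (mean and SD of 3 arrays). The difference was -0.22 (standard error 0.28, limma, adjusted p = 0.833), with a 95% interval of the ratio from 0.551-fold to 1.34-fold.

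The signal of miR-100 was 120, 81 and 142 on the LW arrays and 98, 170 and 108 on the EHL arrays. The highest value came from an EHL array and the lowest from an LW array, with the others in between. The log2 difference of miR-100 was 0.13 (standard error 0.32, limma, adjusted p = 0.921), and the 95% interval of the ratio ran from 0.660-fold to 1.81-fold. The sign was not stable, since it turned to -0.11 without EHL array 2 and to -0.10 without LW array 2.

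Of the 5 members, miR-125a differed least between arrays. The signal of miR-125a was 699, 567 and 730 on the LW arrays and 625, 781 and 624 on the EHL arrays, a 1.38-fold range over all 6. Both breeds spanned nearly the same values, LW at 665 ± 86.6 and EHL at 677 ± 90.4 (mean and SD of 3 arrays). The log2 difference of miR-125a was 0.025 (standard error 0.25, limma, adjusted p = 0.974), and its 95% interval left room for a ratio from 0.687-fold to 1.51-fold. Only 5 of the 109 miRNAs had a smaller difference, and its sign turned to -0.018 with arrays centred to a common median.

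The signal of miR-125b was 1483, 1132 and 1813 on the LW arrays and 1182, 1514 and 1260 on the EHL arrays. The EHL values all lay within the LW range, and the 1.60-fold range over all 6 arrays was close to that of miR-99a, at 1.56-fold. LW had 1476 ± 341 and EHL 1319 ± 174 (mean and SD of 3 arrays), and the log2 difference was -0.14 (standard error 0.27, limma, adjusted p = 0.885), with a 95% interval of the ratio from 0.591-fold to 1.39-fold. Exact two-sided permutation tests gave a p of 0.3 for miR-99a, 0.3 for miR-99b, 0.8 for miR-100, 1 for miR-125a and 0.7 for miR-125b, where 3 arrays against 3 cannot give less than 0.1.

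**Figure D1:**
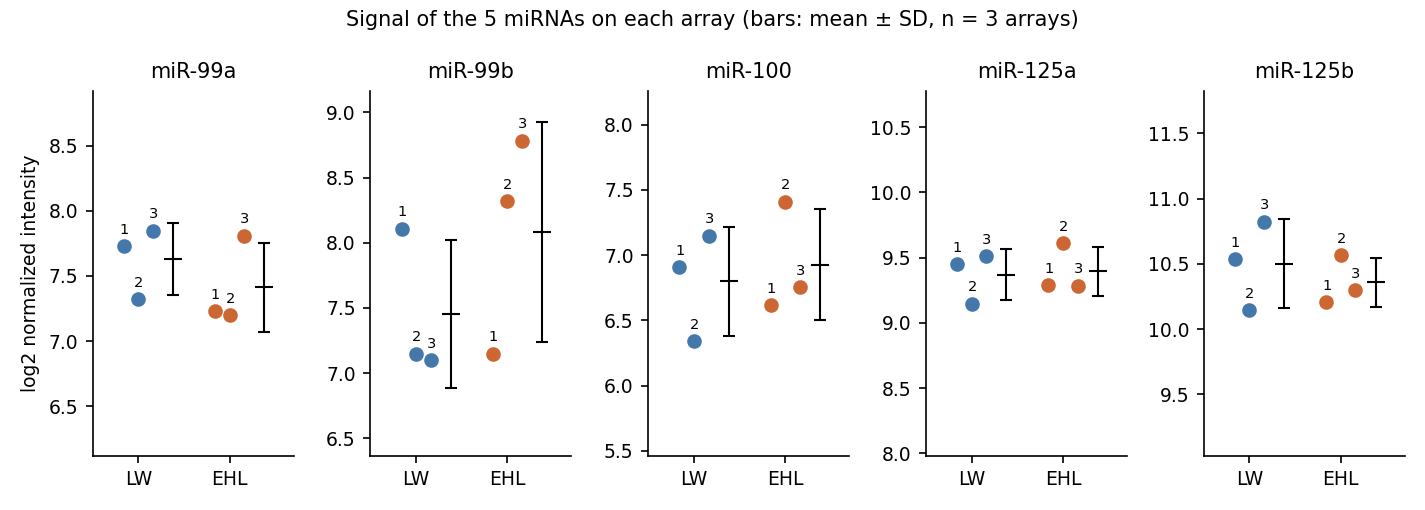
Log2 normalized intensity (y axis) of each of the 5 miRNAs by breed (x axis). Points are arrays with their replicate number, bars the mean ± SD of 3 arrays, and every panel spans the same log2 range; the breeds overlap in each panel, and miR-99b spreads most, from 137 to 440 in linear signal.

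By family, the mean log2 deviation of the 3 miR-99/100 members from their own means was 0.20, -0.45 and -0.020 on the LW arrays and -0.39, 0.26 and 0.40 on the EHL arrays. The lowest values stood on LW array 2, where all 5 members were below their own mean, and on EHL array 1, where all 5 were below it too. The same quantity for the 2 miR-125 members was 0.086, -0.26 and 0.26 in LW and -0.16, 0.18 and -0.11 in EHL, a narrower spread with a breed difference of -0.060. LW array 2 also had the lowest median of the 96 miRNAs, 7.54 against 7.70 to 7.77 on the other arrays. Centring each array on this median moved every breed difference by -0.043 and raised the deviation of the miR-99/100 family on LW array 2 to -0.30, while on EHL array 1 it was -0.39 as before. In the family mean, miR-100 was counted by its name, since the strand that its row detects is not known.

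How alike the members were across arrays was measured by the root mean square distance between their log2 deviations over the 6 arrays, which does not depend on the scaling between arrays. Of the 95 other miRNAs listed on all arrays, miR-125a and miR-125b were each other's closest, at a distance of 0.13 on the log2 scale, against a median of 0.38 from miR-125a and 0.43 from miR-125b to all 95. The 2 closest to miR-100 were miR-125a and miR-125b, both at 0.20, with miR-125b encoded in its own cluster and miR-125a in another. The family of miR-99/100, in which miR-100 was counted by its name, held together less well. The distance was 0.42 between miR-99a and miR-100, 0.63 between miR-99b and miR-100 and 0.66 between miR-99a and miR-99b. This put miR-99b 77th and 79th among the 95 miRNAs from miR-100 and from miR-99a. Seen from miR-99b, however, miR-100 was 40th and miR-99a 45th, since its median distance to all 95 was 0.68. Near-identical miRNAs can share probes, and cross-hybridization within a family was not tested.

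**Figure D2:**
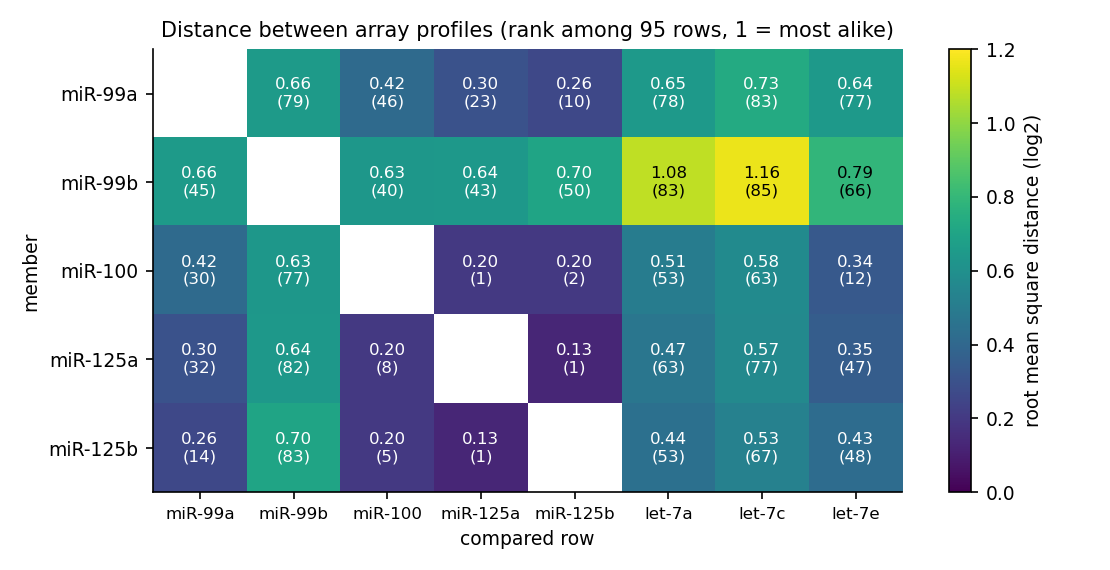
Root mean square distance (log2, colour) between the array profile of each member (rows) and those of the other members and the 3 let-7 partners (columns), with the rank among 95 miRNAs in parentheses. The distances among miR-100, miR-125a and miR-125b are 0.13 to 0.20. Those from miR-99b to the other members are 0.63 to 0.70, against a median of 0.68 from miR-99b to all 95.

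Outside the families, the profiles most like that of miR-99b were those of miR-140* (distance 0.16) and miR-455 (0.16). The signal of miR-140* was 115, 70 and 72 in LW and 84, 161 and 203 in EHL, and that of miR-455 was 122, 91 and 74 in LW and 81, 161 and 238 in EHL. Both were high on EHL arrays 2 and 3, as miR-99b was. The closest to miR-99a were miR-328 (0.18) and miR-27b (0.20), and next after its own family miR-125a was closest to miR-424* (0.13) and miR-125b to miR-1306-5p (0.16). A small distance also arises between rows that vary little, as with miR-424*, which stayed between 49 and 58. This applies to miR-125a as well, whose SD within breeds of 0.19 was 88th highest among the 96 miRNAs listed on all arrays.

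By cluster, the pair of miR-99b and miR-125a, which flank let-7e, did not keep a steady ratio. Both were above their own means on LW array 1 and EHL array 2, and below them on LW array 2 and EHL array 1. On LW array 3 and EHL array 3 they stood on opposite sides. Their log2 ratio within an array was -1.34, -2.0 and -2.41 in LW and -2.14, -1.29 and -0.50 in EHL, a breed difference of 0.61 with overlapping values (exact two-sided permutation p = 0.4). The difference was 0.20 without EHL array 3 and 1.02 without EHL array 1. In profile, miR-99b was the 82nd closest miRNA to miR-125a, its cluster partner, while miR-125a was the 43rd closest to miR-99b. The ratio of miR-99a to miR-125b was steadier. It lay between -2.98 and -2.81 in LW and between -3.36 and -2.49 in EHL, and the breeds differed by -0.076 (exact two-sided permutation p = 0.8).

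The ratio of miR-100 to miR-125b was the only one of the 10 ratios between members without overlap between the breeds. Its log2 value was -3.63, -3.80 and -3.67 in LW and -3.59, -3.15 and -3.54 in EHL. All EHL arrays were higher, by 0.27 on average, although LW array 1 and EHL array 1 lay next to each other. The exact two-sided permutation p was 0.1, the smallest that the design allows, and 0.625 after Benjamini-Hochberg adjustment over the 10 pairs. The difference of this ratio fell to 0.13 without EHL array 2, and with quantile normalization it was 0.21 and the breeds overlapped (exact two-sided permutation p = 0.3). Over all 4560 pairs of miRNAs listed on all arrays, 19% had ratios without overlap, so that 1 of 10 was no more than the background. The ratio of miR-125a to miR-125b varied little in EHL, with -0.92, -0.95 and -1.01, against -1.09, -1.0 and -1.31 in LW (difference 0.17, exact two-sided permutation p = 0.2).

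**Figure D3:**
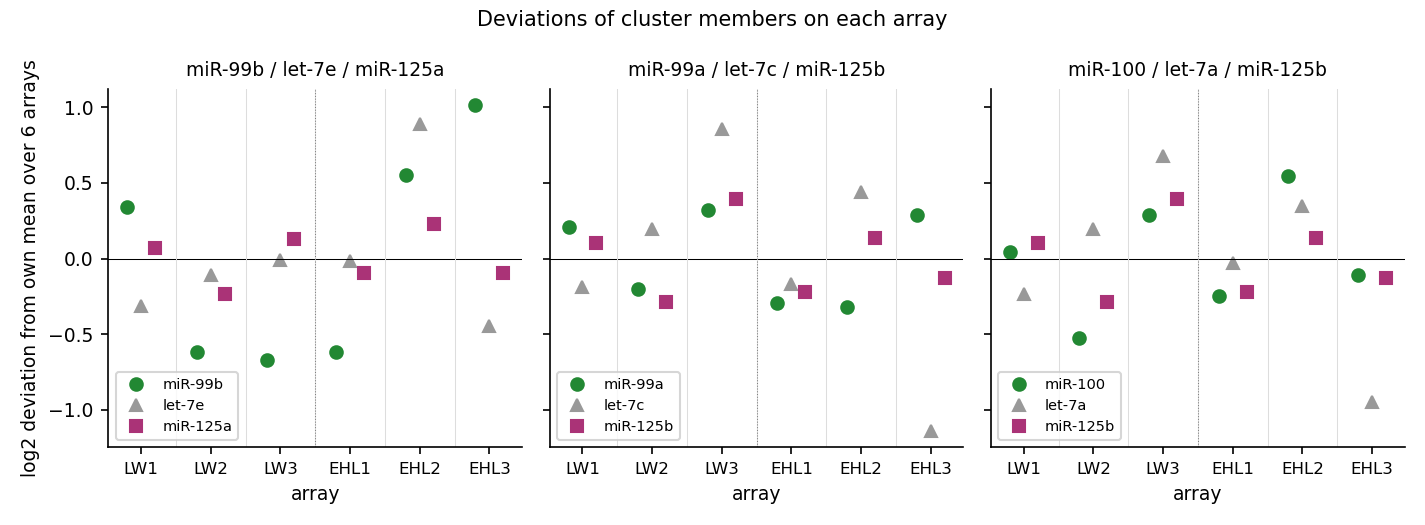
Log2 deviation of each miRNA from its own mean over 6 arrays (y axis) on each array (x axis), in 3 panels, one for each paralogous cluster; the dotted line separates LW from EHL arrays. On EHL array 3 let-7c stands at -1.14 and let-7a at -0.95, while miR-99b in the first panel stands at 1.01.

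The let-7 rows, the partners of both families in the clusters, were described beside them. Of 9 names in the let-7 list, 7 had a row and 6 had values on all arrays, with miR-98 blank on all of them. By limma 0 of 6 passed the FDR of 15% and 0 of 6 had an unadjusted p under 0.05, SAM called 0 of 6, and their median difference was -0.26 against 0.025 over all 109 miRNAs tested. The signal of let-7e, partner of miR-99b and miR-125a, was 216, 249 and 267 in LW and 266, 498 and 197 in EHL, a log2 difference of 0.29 (standard error 0.35, limma, adjusted p = 0.833). The signal of let-7c, partner of miR-99a, was 674, 883 and 1395 in LW and 685, 1046 and 349 in EHL, a difference of -0.58 (standard error 0.43, limma, adjusted p = 0.645). The signal of let-7a, partner of miR-100, was 1224, 1647 and 2303 in LW and 1409, 1834 and 746 in EHL, a difference of -0.42 (standard error 0.38, limma, adjusted p = 0.727). The breeds overlapped for all 3 partners. Without EHL array 3 the difference was -0.15 for let-7c and -0.053 for let-7a.

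EHL array 3 held the lowest signal of 5 of the 6 let-7 rows and of 0 of the 5 members, and the highest signal of miR-99b. The share of all miRNAs that were lowest on this array is not given, so these counts cannot be called particular to let-7. Of the 6 log2 ratios of a member to the let-7 row of its cluster, 5 were highest on EHL array 3. The ratios reuse the same let-7 rows and miR-125b, so they are not separate observations. For miR-99b over let-7e the ratio was 0.35, -0.81 and -0.96 in LW and -0.91, -0.64 and 1.16 in EHL. For miR-99a over let-7c it was -1.67, -2.46 and -2.60 in LW and -2.19, -2.83 and -0.64 in EHL. For miR-100 over let-7a it was -3.35, -4.35 and -4.02 in LW and -3.85, -3.43 and -2.79 in EHL. LW array 1 came second to EHL array 3 in these 5 ratios and was highest in the remaining one, miR-125a over let-7e, at 1.69 against 1.66 on EHL array 3. The mean deviation of the 6 let-7 rows was -0.86 on EHL array 3 and -0.35 on LW array 1. An array of each breed thus departed in the same direction, the breeds overlapped in all 6 ratios, and no test is given. Over the 96 miRNAs listed on all arrays, the deviations of LW array 1 and EHL array 3 from their breed means correlated at 0.69. This was the highest correlation between an LW and an EHL array, so their shared departure cannot be called particular to the let-7 rows.

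**Figure D4:**
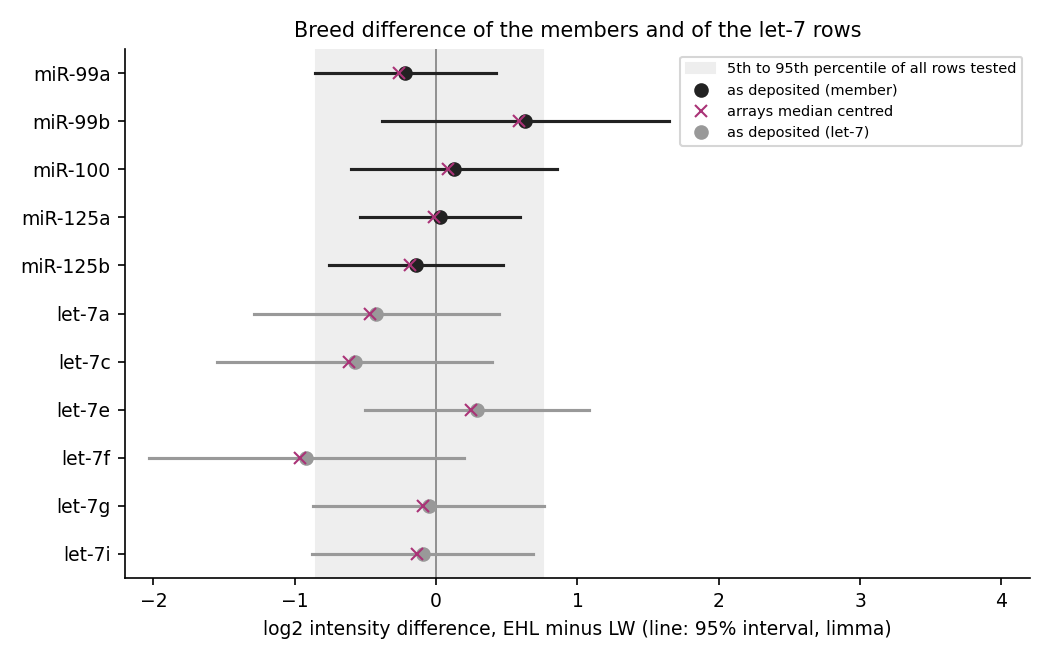
Log2 intensity difference EHL minus LW (x axis) of the 5 members and of the 6 let-7 rows, with the 95% interval from limma over 6 arrays; crosses give the difference after centring each array on its median, and the grey band spans the 5th to the 95th percentile of all 109 miRNAs tested, from -0.85 to 0.76. All 11 intervals include 0, and the members lie between -0.22 and 0.63.

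The markers of other liver cell types gave the setting of these values. The summed signal of 6 rows of stellate cell and smooth muscle markers, 5 of them listed on all arrays, ranged from 3336 to 4080 in LW and from 3101 to 4970 in EHL, and miR-126 of the endothelium from 2209 to 4098 and from 3110 to 4524. In tissue RNA, fewer cells of a type and less miRNA per cell cannot be told apart. The rows of this list did not move together. The log2 difference was -0.43 for miR-199a-3p, which was lowest on EHL array 3, at 613, and -0.022 for miR-199a, 0.18 for miR-214 and 0.077 for miR-145. The signal of miR-143-3p, which marks smooth muscle as miR-145 does, was 306, 264 and 212 in LW and 308, 398 and 484 in EHL. It was highest on EHL arrays 3 and 2, as was miR-99b, and the breeds did not overlap, but its log2 difference of 0.60 did not pass the FDR of 15% (standard error 0.28, limma, adjusted p = 0.443). It is named for this likeness after its values were seen, and its part in the values of miR-99b was not tested.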

How the data were processed

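Liver RNA of newborn male piglets (5 µg per pool, small RNAs under 300 nt) was hybridized by the service provider to single-colour pig miRNA arrays. The values the authors deposited are linear intensities, 1 for each row and array, from which the background had been removed before a LOWESS normalization, and some cells are blank. The rule for blanks is not given in the sources used here. The intensities were converted to log2 without a pseudocount, and EHL was compared with LW in R 4.3.3 by limma 3.58.1 in a model of breed alone. It was run on 109 named rows, those listed on 2 or more LW and 2 or more EHL arrays, out of 236 named and 100 unnamed (LRS) rows, with Benjamini-Hochberg adjustment over all 109 and the FDR of 15% that the study used. SAM was recomputed with 20 relabellings, its constant s0 being the 5th percentile of the standard errors. Both were tested on simulated data, with shifts larger than the difference of any member and independent noise. The power to detect differences of the members' size was not tested.

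Named rows were the 5 members, the let-7 list, the cell type markers and, for each member, the 2 rows of most similar profile. The members and lists were chosen with earlier results of these data known. Rows were matched by exact name. Pairs of members were compared by exact permutation in Python 3.11.15 with scipy 1.17.1. The number of arrays limits the precision. The p-values set a breed difference against the spread between arrays, each a pool of littermates, which limma moderates over all rows tested. They do not separate variation between litters from variation between arrays. Gene order came from the RefSeq table of Sscrofa11.1, in which MIR125B-2 was not matched. The alternatives were SAM, a replicate block, centring, quantile normalization, other row filters, a trended and robust fit, array weights, ratios of mean linear signals, a stricter threshold and each array left out. Centring on all listed rows was an alternative chosen after seeing the data.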

Additional observations from a re-analysis of the deposited data

How the results depend on the processing

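Of the 5 members, limma called 0 higher and 0 lower in EHL, and every alternative run gave the same counts except the fit without EHL array 1, which called miR-99b higher. The stricter threshold was applied to the main fit, so it could add no call. When single arrays were omitted, the members called higher ranged from 0 to 1 and the let-7 rows called lower from 0 to 1, the latter being let-7f without EHL array 1. Over all miRNAs the count was 1 higher and 0 lower, and it was 8 and 0 with SAM, 0 and 0 with the replicate block, 4 and 3 with array weights, 1 and 1 with quantile normalization or the LRS rows, 0 and 0 with centring on all listed rows, and 0 to 15 and 0 to 9 with an array left out. SAM, the replicate block, the row filters, the LRS rows, the trended and robust fit and the stricter threshold left the members' estimates unchanged. Only the other alternatives could turn a sign. The differences of miR-99a and miR-99b kept their sign under all 19 alternatives. That of miR-125a turned to -0.018 with median centring, and with centring on all listed rows, which was chosen after seeing the data and shifted each miRNA listed on all arrays by -0.28, miR-125a stood at -0.26 and miR-100 at -0.16. With an array left out, miR-99a ranged from -0.42 to -0.11, miR-99b from 0.28 to 1.10, miR-100 from -0.11 to 0.30, miR-125a from -0.086 to 0.096, miR-125b from -0.32 to 0.017, let-7a from -0.70 to -0.053, let-7c from -0.94 to -0.15, let-7e from -0.087 to 0.58, let-7f from -1.24 to -0.35, let-7g from -0.43 to 0.15 and let-7i from -0.35 to 0.20. The ratio of miR-100 to miR-125a turned to -0.096 with quantile normalization and ranged from -0.031 to 0.21 with an array left out, that of miR-99a to miR-100 from -0.63 to 0.00034 that of miR-99a to miR-125b from -0.30 to 0.13, that of miR-99b to miR-125a from 0.20 to 1.02 and that of miR-100 to miR-125b from 0.13 to 0.35. Apart from the smaller sets of arrays and the shift itself, the cause was not tested.

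For the members, the replicate block called 0 higher and 0 lower. Arrays of the same number did not deviate together, with correlations of -0.50, -0.011 and -0.66 over the 96 miRNAs listed on all arrays, so they were not treated as pairs, and the block changed no other call on the members.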

Other observations

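Without EHL array 1, the miRNAs whose profile was most like that of miR-99b were called together with it. By limma the EHL minus LW log2 difference was then 1.12 for miR-140* (standard error 0.32, adjusted p = 0.0407), 1.06 for miR-455 (standard error 0.33, adjusted p = 0.0466) and 1.10 for miR-99b (standard error 0.36, adjusted p = 0.0579). With all 6 arrays the differences were 0.75, 0.64 and 0.63, and none passed the FDR of 15% (limma, adjusted p = 0.505, 0.593 and 0.604). These miRNAs were picked because their profiles were alike, so that their shared call is a description and not independent support. In the same fit let-7f, a let-7 form outside the clusters of both families, was lower in EHL, with a difference of -1.17 (standard error 0.47, adjusted p = 0.112), and miR-100, miR-125a, miR-125b and miR-99a were not called. Whether EHL array 1 or the other EHL arrays are closer to the breed could not be told from 3 pools.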
